A study of Mus musculus with 10 samples.

Results

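Expression of glycolysis genes and of other genes that respond to hypoxia-inducible factors was described in the whole lung of mice exposed to intermittent hypoxia. The members were 39 named genes, 23 of the path from glucose uptake to lactate export and 16 with other functions. A member was measured where a probe set of the array carried exactly 1 gene symbol, equal to the member's symbol or its current form. Where there were several, the one brightest on average across the 10 arrays was used. By this rule 32 of 39 were measured, 19 glycolytic and 13 others, among 12393 genes measured in this way. Gpi1, Pfkfb4, Eno1, Ankrd37 and Epo had no such probe set and were not analysed here. The 2 probe sets of Gapdh and the 3 of Bnip3l also carried the symbols of other loci and were left out. The lungs came from male C57BL/6 mice, an inbred strain, aged 6 to 8 weeks. Of these, 5 mice were kept in normoxia and 5 in intermittent hypoxia, in which the oxygen supply falls and recovers repeatedly, with 1 Affymetrix Mouse Genome 430A 2.0 array per animal. Neither the oxygen levels nor the length of exposure is given in the sources used here.

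Hypoxia-inducible factors (HIFs) are transcription factors whose α subunits are marked for destruction by prolyl hydroxylases while oxygen is plentiful. When oxygen falls, the α subunits pair with ARNT, bind short DNA elements with an ACGTG or GCGTG core and raise the transcription of genes for glucose uptake, glycolysis, lactate export and mitochondrial restraint. Glycolysis splits glucose into pyruvate, and many of its steps have several enzymes encoded by different genes that differ between tissues.

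Values are log2 probe set levels, on which a difference of 1 is a doubling, and array medians lay between 7.69 and 7.73. Genes were compared with limma, and a gene passed at a Benjamini-Hochberg adjusted p below 0.05 over all 22626 probe sets. The labelled tissue was borne out by fixed alveolar and airway markers. The median gene of the type 2 cell list stood at the 99.6th percentile of gene means. That of the type 1 cell list stood at the 95.6th and that of the airway list at the 99.9th. The endothelial and alveolar macrophage lists stood at the 90th and 63.9th, the cardiac muscle list at the 84.9th and the adipose list at the 59.2th. Normoxia arrays 2, 3 and 4 stood apart, with a standard deviation over their probe sets of 1.89 to 1.93 against 1.99 to 2.05 on the other arrays. The mean correlation of normoxia arrays 1 and 5 with the hypoxia arrays was 0.994 and 0.993, against 0.993 and 0.991 within normoxia. For normoxia arrays 2 to 4 it was 0.984 to 0.988 with the hypoxia arrays and 0.990 to 0.993 within normoxia. Normoxia array 2 also carried skeletal muscle transcripts, as described below. Each member that passed is given with and without normoxia arrays 2, 3 and 4, as are the genes named from the pathway lists.

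HIF target and glycolysis genes moved in both directions, and most did not pass. Among the 19 glycolytic members 3 rose (Pfkp, Pgam1 and Pkm), 1 fell (Slc16a3) and 15 did not pass. Among the 13 others none rose, 2 fell (Ddit4 and Selenbp1) and 11 did not pass, and 4 were below an unadjusted p of 0.05 (30.8%, against 32.6% of all genes); SAM (significance analysis of microarrays, a permutation method) also called none higher. Over all 12393 genes 12.5% passed, 8.93% as higher and 3.60% as lower. The median log2 fold change was -0.01 for the glycolytic members and -0.07 for the others, against 0.01 over all genes. The median absolute change was 0.15 and 0.14, against 0.12 over all genes. Of the members, 15 glycolytic and 12 others lay at or above the median probe set level. A fit of the 11313 probe sets at this level alone called 1938 higher and 492 lower, with a median change of 0.10. In that fit the glycolytic median was 0.01, with 3 rises. Slc16a3, the glycolytic member that fell, lay below this level and was not tested in it. The median of the others was -0.04, with 2 falls and no rise. For 26 of the 32 members the 95% interval of the change lay within 0.5 log2 units of 0 on both sides. The same held for 10416 of all 12393 genes, a like share.

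**Figure D1:**
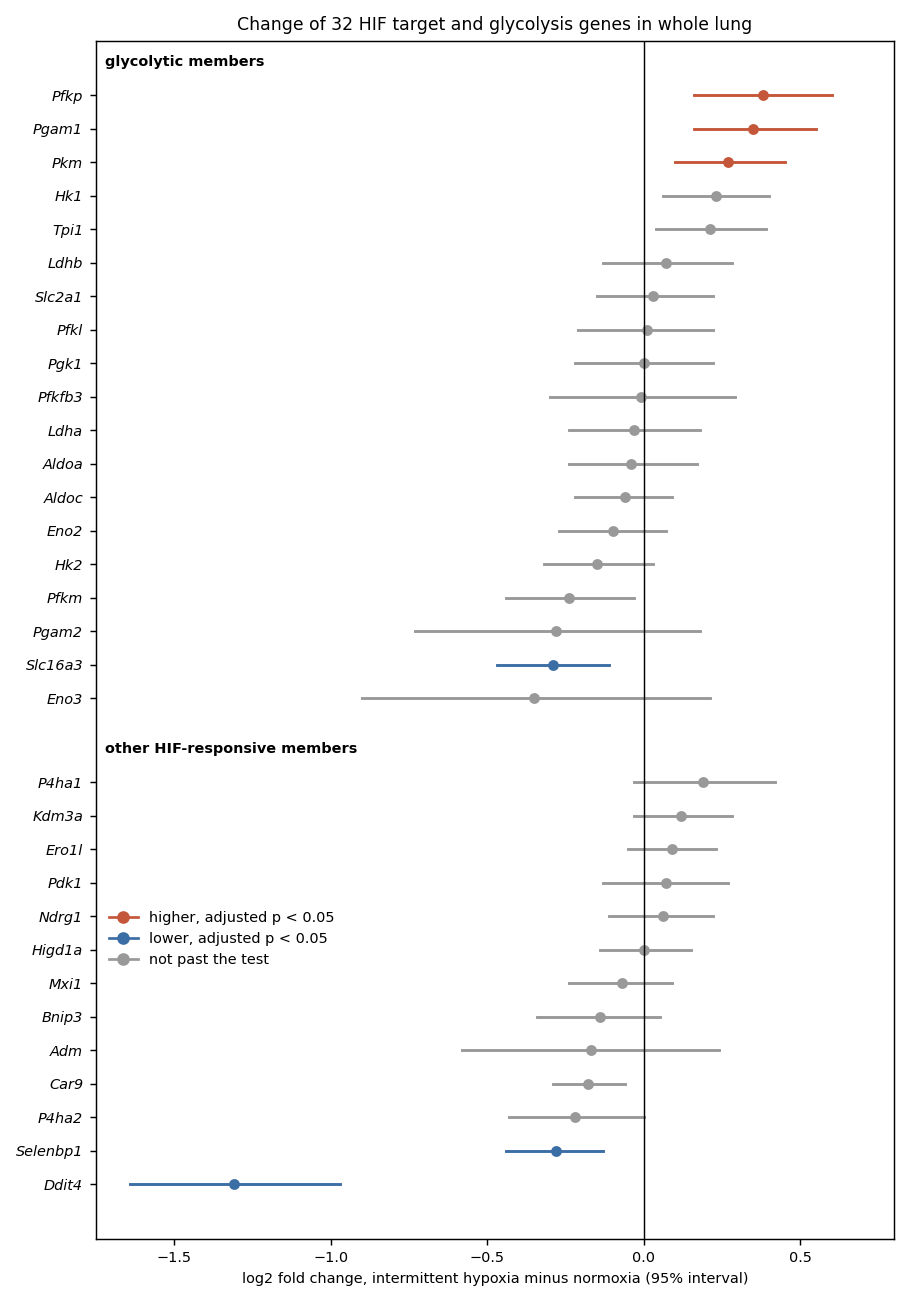
Log2 fold change (intermittent hypoxia minus normoxia, points) with its 95% interval (lines) for the 32 measured members, the glycolytic members above and the others below, with genes that passed the limma test in colour. Ddit4 lies at -1.31, apart from the other members, which run from -0.35 for Eno3 to 0.38 for Pfkp.

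The split of the calls depended on the arrays and their scaling. Quantile normalization of the 10 arrays left 2 glycolytic rises (Pfkp and Pgam1) and no glycolytic fall, and gave 4 falls among the other members (Bnip3, Ddit4, Mxi1 and Selenbp1). With that scaling 25 of 32 members had a negative change, against 18 with the deposited values. Of all genes 53.2% had a positive change with the deposited values, and this share was not counted with quantile normalization. The median change over all genes was 0.01 with the deposited values and -0.01 with quantile normalization. Over all genes the shares called higher and lower were then 5.81% and 4.77%. Among the other settings, SAM called 5 glycolytic and 3 other members, with 19.9% of all genes called (29.1% with the median of false calls), and arrayWeights the same numbers of members, with 18.8% of genes. With eBayes trend and robust options the numbers were 3 and 2, with 12.6% of genes. Without normoxia arrays 2, 3 and 4, when 0.0807% of genes passed, no member passed limma. Then 4 of 32 members were below an unadjusted p of 0.05, but the share of all genes below it was not counted in this setting. A negative change was found in 22 of 32, with a member median of -0.11 against 0.00 over all genes. With 2 normoxia arrays left, the failure to pass does not show that the genes did not differ.

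Glucose enters cells through carriers, of which Slc2a1 encodes GLUT1, the carrier most widely induced by HIF. Slc2a1 averaged 8.88 ± 0.07 (SD, n = 5) in normoxia and 8.91 ± 0.18 (SD, n = 5) under intermittent hypoxia, a difference of 0.03 with an interval from -0.15 to 0.22. Its hypoxia values spanned 8.70 to 9.13, which took in the whole normoxia range of 8.80 to 9.00. Hexokinase then traps glucose by phosphorylation. Hk1, the broadly expressed hexokinase, read 10.16, 9.97, 9.72, 9.84 and 10.01 on normoxia arrays 1 to 5 and 10.11 to 10.26 in intermittent hypoxia. The difference of 0.23 (SE 0.08) did not pass (limma adjusted p = 0.0763). It did pass with SAM (0.0463), with arrayWeights (0.0438) and without normoxia array 1 (0.0273), but was 0.09 (0.384) with quantile normalization and 0.08 (0.813) without normoxia arrays 2, 3 and 4. Hk2, the hexokinase classically induced by HIF and insulin, had a change of -0.15 (SE 0.08, adjusted p = 0.237), with its highest value, 9.09, on normoxia array 2.

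Phosphofructokinase commits the sugar to glycolysis, and its platelet-type subunit gene Pfkp rose. Pfkp read 8.87, 8.85, 8.55, 8.66 and 9.15 on the normoxia arrays and 9.29, 9.32, 9.10, 9.16 and 9.09 on the hypoxia arrays. Only normoxia array 5 reached into the hypoxia range, so that the groups overlapped. The change was 0.38 on the log2 scale (SE 0.10), a 1.30-fold increase (limma adjusted p = 0.0321). The weaker second probe set of Pfkp differed by 0.16 and did not pass (adjusted p = 0.162). The call was lost when any one of 7 arrays (normoxia 2 to 4, hypoxia 1 to 4) was dropped, where the adjusted p reached 0.0854. The change was 0.19 without normoxia arrays 2, 3 and 4. The liver-type gene Pfkl differed by 0.01 (interval -0.21 to 0.22) and the muscle-type gene Pfkm by -0.24 (SE 0.10, adjusted p = 0.115). Pfkfb3, whose product makes the fructose bisphosphate that activates phosphofructokinase, differed by -0.01 (interval -0.30 to 0.29). Its highest value, 9.87, was on hypoxia array 3, and the other 4 hypoxia arrays ran from 9.09 to 9.26.

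In the middle of the path most differences were small against their error. Aldoa, the aldolase of muscle and most other tissues, differed by -0.04 (interval -0.24 to 0.17), and its normoxia values of 12.09 to 12.55 enclosed the hypoxia values of 12.16 to 12.39. The brightest probe sets of Aldoa, Tpi1 and Pgk1 are of a class that can also bind related transcripts. Its brain-type relative Aldoc differed by -0.06 (interval -0.22 to 0.09). Tpi1, which interconverts the triose phosphates, differed by 0.21 (SE 0.08, limma adjusted p = 0.0989). It passed without normoxia array 1 (0.0479), but was 0.06 (0.545) with quantile normalization and 0.07 (0.850) without normoxia arrays 2, 3 and 4. Pgk1, whose enzyme makes the first ATP of the pathway and which is a standard HIF target, averaged 11.71 in both groups, with SDs of 0.21 (normoxia) and 0.14 (hypoxia, n = 5 each). The 2 other probe sets of Pgk1 differed by 0.13 and 0.02, and neither passed.

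Pgam1, the phosphoglycerate mutase of brain and most other tissues, was the only glycolytic member that rose without overlap of the groups. It read 9.00, 8.77, 8.60, 8.61 and 8.94 on the normoxia arrays and 9.19, 9.30, 9.06, 9.09 and 9.04 on the hypoxia arrays. Over all genes 8.61% had groups that did not overlap, 5.76% with higher values in hypoxia. The highest normoxia value, 9.00 on array 1, lay just under the lowest hypoxia value. Pgam1 rose by 0.35 (SE 0.09, limma adjusted p = 0.0272) or 1.28-fold. Its call was lost when any one of 5 arrays (normoxia 2 to 4, hypoxia 1 and 2) was dropped, where the adjusted p reached 0.0741. The change was 0.17 without normoxia arrays 2, 3 and 4.

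Pkm, which encodes the pyruvate kinases M1 and M2, read 10.68, 10.48, 10.34, 10.38 and 10.66 on the normoxia arrays and 10.78, 10.80, 10.91, 10.74 and 10.65 on the hypoxia arrays. Normoxia arrays 1 and 5 lay at the lower end of the hypoxia range, and arrays 2 to 4 lay below it. The rise was 0.27 (SE 0.08, limma adjusted p = 0.0464), or 1.21-fold. It was lost when any one of 7 arrays (normoxia 2 to 4, hypoxia 1 to 4) was dropped (adjusted p up to 0.118) and with eBayes trend and robust options (0.0548). With quantile normalization the change was 0.11 (0.160), and also 0.11 without normoxia arrays 2, 3 and 4.

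Pfkp, Pgam1 and Pkm thus shared a pattern within normoxia, with arrays 1 and 5 nearest to the hypoxia values. The mean levels of endothelial, type 1 cell and type 2 cell markers had a like order. The mean log2 level of 6 type 2 cell markers was 13.23 and 13.10 on normoxia arrays 1 and 5 and 12.91 to 12.92 on arrays 2 to 4. It was 12.97 to 13.23 in intermittent hypoxia, and none of these markers passed. Airway markers did not have this order, at 12.76 to 12.99 in normoxia and 12.79 to 12.91 in intermittent hypoxia. The mean log2 level of 6 endothelial markers was 10.67 and 10.81 on normoxia arrays 1 and 5 and 10.34 to 10.46 on arrays 2 to 4. It was 10.76 to 10.96 in intermittent hypoxia. Of the 6 markers 1 rose, Emcn, by 1.03 (limma adjusted p = 9.3e-05). Emcn itself lacked this order, at 8.39 on normoxia array 1 and 8.41 on array 4. The mean log2 level of 5 type 1 cell markers was 11.85 and 11.87 on normoxia arrays 5 and 1 and 11.46 to 11.65 on arrays 2 to 4. It was 11.80 to 11.96 in intermittent hypoxia. Of the 5 markers 1 rose, Aqp5, by 0.53 (limma adjusted p = 0.00915). Its change was 0.32 without normoxia arrays 2, 3 and 4. Of 5 alveolar macrophage markers 3 rose (Cd68, Itgax and Mrc1), where 8.93% of all genes were called higher. The mean level of the 5 was 8.24 to 8.42 on normoxia arrays and 8.28 to 9.09 on hypoxia arrays. The part of these cells in the 3 rises was not tested, and in whole tissue a change in the number of cells of a type and a change in RNA per cell cannot be told apart.

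**Figure D2:**
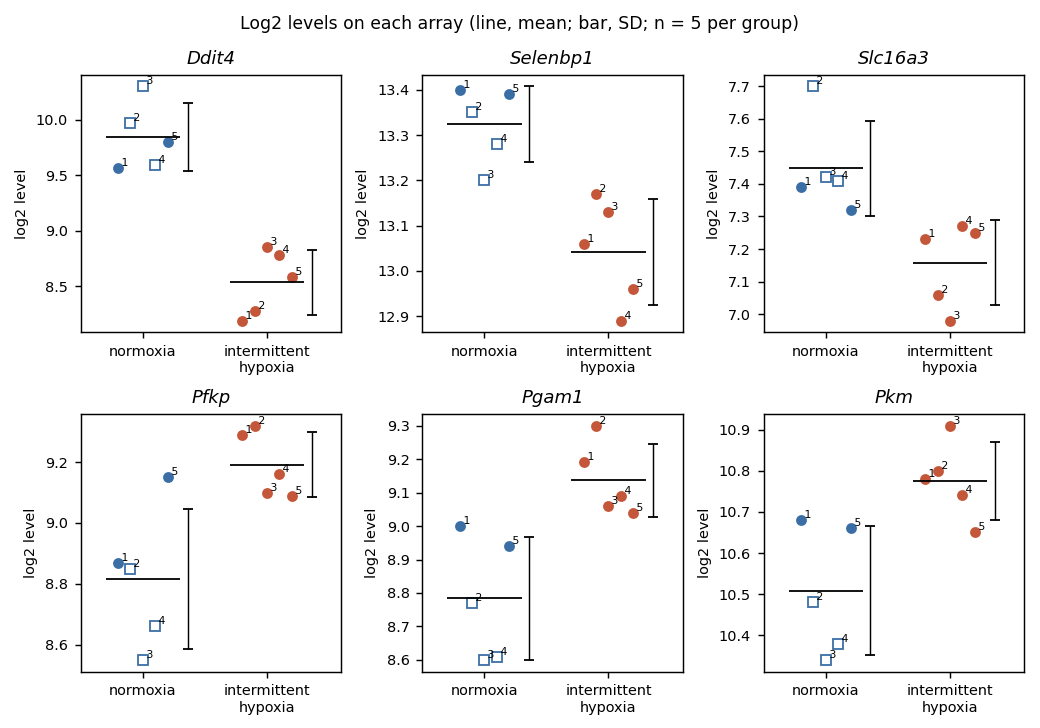
Log2 levels of the 6 members that passed the test on each array, normoxia in blue and intermittent hypoxia in red, with the array number beside each point. Open squares are normoxia arrays 2, 3 and 4, lines are means and bars are SD (n = 5 per group). Pfkp, Pgam1 and Pkm are lowest on the open squares, while all hypoxia values of Ddit4, Selenbp1 and Slc16a3 lie under all normoxia values.

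Lactate dehydrogenase turns pyruvate to lactate, and neither of its main subunit genes passed. Ldha, the HIF-responsive subunit that favours lactate production, averaged 11.25 ± 0.19 (SD, n = 5) in normoxia and 11.22 ± 0.14 (SD, n = 5) under intermittent hypoxia. Ldhb, the heart-type subunit, differed by 0.07 (interval -0.13 to 0.28). The 3 other probe sets of Ldhb differed by 0.05 to 0.08, and all 4 read highest on normoxia array 5. Slc16a3 encodes MCT4, the carrier that exports lactate from strongly glycolytic cells, and it fell. It read 7.39, 7.70, 7.42, 7.41 and 7.32 on the normoxia arrays and 7.23, 7.06, 6.98, 7.27 and 7.25 on the hypoxia arrays, without overlap. The fall of 0.29 (SE 0.08) left 0.816 of the normoxia level (limma adjusted p = 0.0410). The call was lost when any one of the same 7 arrays was dropped (adjusted p up to 0.0979) and with quantile normalization (0.0531). MCT4 is abundant in fast muscle, and without normoxia array 2, which held its highest value, the change was -0.23 (0.0883). It was -0.20 (0.517) without normoxia arrays 2, 3 and 4.

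Skeletal muscle transcripts were high on normoxia array 2. Of 10 skeletal muscle markers 8 lay at least 1 log2 unit above every other array there, and their mean level was 10.13 against 6.22 to 6.37 on the other normoxia arrays and 5.97 to 6.28 in intermittent hypoxia. Acta1, the actin of skeletal muscle, was 13.12 on this array and 5.68 to 6.99 on the other arrays, and Myh1, a fast myosin heavy chain, was 12.12 against 4.76 to 5.18. Between the groups 1 of the 10 markers passed, the calcium store gene Casq1 (-1.25, limma adjusted p = 0.0365). Casq1 was not among the transcripts high on array 2 alone, since it read 9.85, 9.78 and 9.43 on normoxia arrays 2, 3 and 4 and 8.02 and 8.08 on arrays 1 and 5. Its change was -0.26 (0.724) without these 3 arrays. In all 42 probe sets stood at least 1 log2 unit above every other array on normoxia array 2, against at most 7 on any other array. The 10 cardiac muscle markers, which the muscle sleeves of mouse pulmonary veins express, had a mean level of 10.16 there, within the 10.06 to 10.34 of the normoxia group.

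The muscle-type glycolytic genes were highest on the same array. Eno3, the muscle enolase, was 10.36 there and 8.74 to 8.98 on the other normoxia arrays, and 8.47 to 9.04 in intermittent hypoxia. Pgam2, the muscle mutase, was 8.64 there and 7.31 to 7.75 on the other normoxia arrays, against 7.01 to 7.70 in intermittent hypoxia. Pfkm was 10.10 there and 9.58 to 9.69 on the other normoxia arrays, against 9.33 to 9.62 in intermittent hypoxia. The changes of Eno3, Pgam2 and Pfkm were -0.35, -0.28 and -0.24 with all arrays and -0.05, -0.06 and -0.14 without normoxia array 2, and none passed the limma test either way. The part of muscle RNA in these values was not tested. Of the 32 members, 6 were highest on normoxia array 2. The neuronal enolase gene Eno2 was low on all arrays, 5.42 to 5.78, and differed by -0.10 (interval -0.27 to 0.07).

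**Figure D3:**
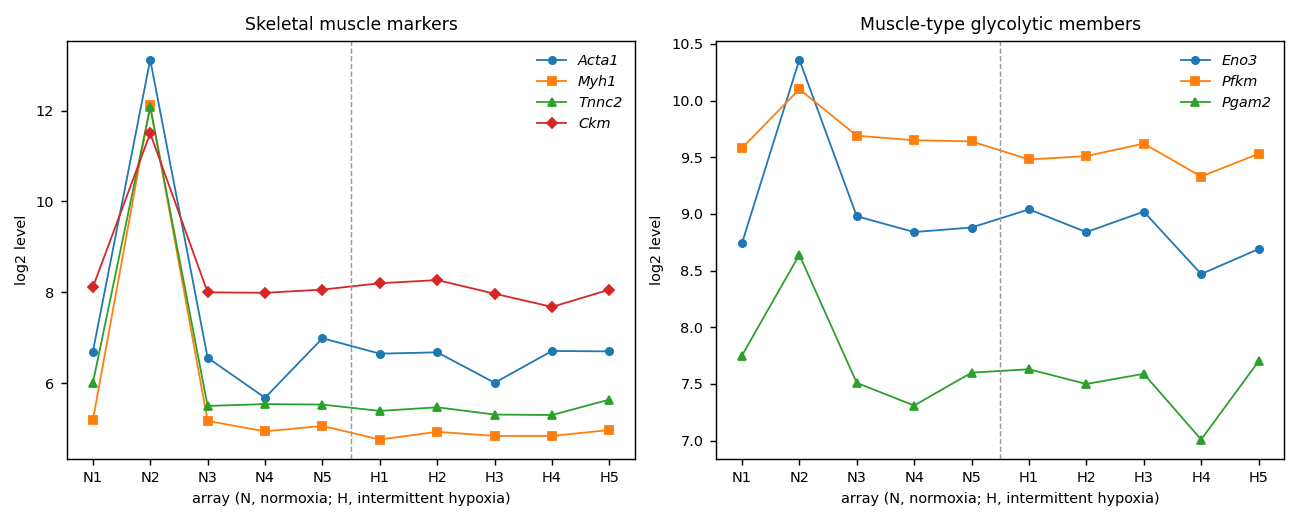
Log2 levels on each of the 10 arrays (N, normoxia; H, intermittent hypoxia; numbered by replicate) of the skeletal muscle markers Acta1, Myh1, Tnnc2 and Ckm on the left and of the glycolytic members Eno3, Pfkm and Pgam2 on the right. All 7 genes peak on normoxia array 2, where Acta1 reads 13.12 and Eno3 10.36.

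Whether genes for one step moved apart was asked within arrays, by subtracting one gene's log2 level from the other's and comparing this difference between groups with an exact two-sided permutation test. Of 11 pairs listed, 7 had both genes measured. The difference itself depends on how the probes respond, so only its change is read. Hk2 fell relative to Hk1 by 0.37 (exact permutation p = 0.0159, adjusted p = 0.0370 over 7 pairs), with normoxia differences of -1.33 to -0.84 and hypoxia differences of -1.63 to -1.29, which overlapped narrowly. Pfkp was higher relative to Pfkl by 0.37 (exact permutation p = 0.0238, adjusted p = 0.0417). Pgam2 fell relative to Pgam1 by 0.63 (exact permutation p = 0.0159, adjusted p = 0.0370), and by 0.41 without normoxia array 2 (adjusted p = 0.0556). P4ha2 fell relative to P4ha1 by 0.41 (exact permutation p = 0.0159, adjusted p = 0.0370). These genes encode alternative catalytic subunits of the collagen prolyl hydroxylase. Pfkm against Pfkl, Aldoc against Aldoa and Ldhb against Ldha differed by -0.24, -0.03 and 0.10 between groups and did not pass (exact permutation adjusted p = 0.267, 0.889 and 0.454).

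The calls of these relative changes were easily lost, while their directions held. With quantile normalization the hexokinase call was lost (-0.30, exact permutation adjusted p = 0.0694) and the other 3 held. Leaving out any of normoxia arrays 1 to 4 or hypoxia arrays 1, 2 and 4 ended all 4 calls, with exact permutation adjusted p up to 0.0833. The sizes then ran from -0.44 to -0.32 for the hexokinases, from 0.28 to 0.44 for Pfkp against Pfkl, from -0.71 to -0.41 for the mutases and from -0.48 to -0.36 for the hydroxylase subunits. Without normoxia arrays 2, 3 and 4 together they were -0.24, 0.35, -0.36 and -0.26.

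**Figure D4:**
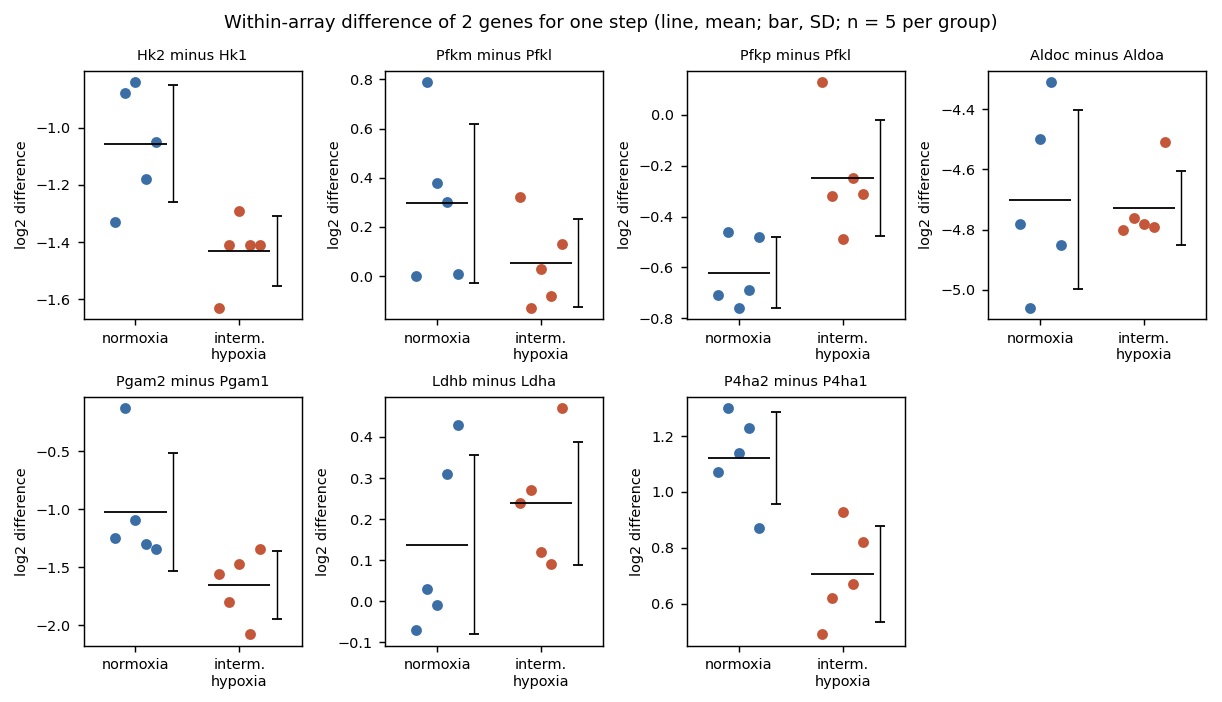
Within-array difference of the log2 levels of 2 genes for one step, for 7 pairs, with 1 point per array, lines for means and bars for SD (n = 5 per group). The difference of Hk2 and Hk1 spans -1.33 to -0.84 on normoxia arrays and -1.63 to -1.29 on hypoxia arrays, while that of Aldoc and Aldoa has nearly the same mean in both groups, -4.70 and -4.73.

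None of the 3 HIF-responsive genes of the mitochondrion passed limma, SAM or an unadjusted p of 0.05 on its brightest probe set. Pdk1, a kinase that keeps pyruvate out of the mitochondrion, differed by 0.07 (interval -0.13 to 0.27). Bnip3, a receptor that marks mitochondria for removal, differed by -0.14 (SE 0.09, limma adjusted p = 0.297). Bnip3 was 10.63 and 10.72 on hypoxia arrays 4 and 5 and 10.89 to 11.13 on the other 8, and with quantile normalization it was called lower at -0.30 (adjusted p = 0.0338). Higd1a, a small protein of the respiratory chain, differed by 0.00 (interval -0.14 to 0.15) on its brightest probe set and by 0.30 and 0.26 on its other 2, none of which passed.

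Genes for surface, secreted and folding proteins included a gene on the edge of the test. Car9 encodes the cell-surface carbonic anhydrase that is among the most HIF-specific targets in cultured cells. It was low on all arrays, at 6.81, 6.90, 6.91, 6.84 and 6.79 in normoxia and at 6.66, 6.66, 6.71, 6.68 and 6.65 in intermittent hypoxia, without overlap. Over all genes 2.85% had groups that did not overlap with lower values in hypoxia. The change of -0.18 (SE 0.05) did not pass (limma adjusted p = 0.0513), but did with SAM (0.0135), with arrayWeights (0.0332) and without normoxia array 5 (0.0341), and it was -0.12 (0.603) without normoxia arrays 2, 3 and 4. Adm, which encodes the vasodilator peptide adrenomedullin, spread widely, over 7.47 to 8.28 among normoxia and 7.10 to 8.22 among hypoxia arrays, so its interval of -0.58 to 0.24 was the widest of this group. Ndrg1, a stress-response gene used as a hypoxia marker, differed by 0.06 (interval -0.11 to 0.22), and none of its 4 other probe sets passed. The collagen hydroxylase genes P4ha1 and P4ha2 differed by 0.19 (SE 0.11, adjusted p = 0.227) and -0.22 (SE 0.10, adjusted p = 0.151), and P4ha1 by 0.03 without normoxia arrays 2, 3 and 4. Ero1l (Ero1a in the current nomenclature), an oxidase that forms disulfide bonds in new proteins, differed by 0.09 (interval -0.05 to 0.23).

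Ddit4 had the largest change of the 32 members with all arrays. It encodes REDD1, which restrains the growth kinase complex mTORC1 and is induced by HIF and by glucocorticoids. It read 9.56, 9.97, 10.30, 9.59 and 9.80 on the normoxia arrays and 8.19, 8.28, 8.85, 8.78 and 8.58 on the hypoxia arrays, with a gap of over 0.7 between the groups. The fall was 1.31 (SE 0.16, limma adjusted p = 0.00144), to 0.404 of the normoxia level, and the call held when any single array was left out (adjusted p up to 0.00653). Without normoxia arrays 2, 3 and 4 the change was -1.15 (interval -1.53 to -0.76, adjusted p = 0.0573). Counts from 2 fixed lists were set beside this gene. Over all genes 8.93% were called higher and 3.60% lower with limma, and 19.9% in either direction with SAM. Of 10 other restrainers of mTORC1 and stress genes, Deptor fell by 0.31 (SE 0.06) and Tsc2 rose by 0.37 (SE 0.09), and 8 did not pass. These changes were -0.27 and 0.23, and did not pass, without normoxia arrays 2, 3 and 4. Of 16 glucocorticoid-responsive genes, a list that holds Ddit4 and was drawn up with earlier results of these data known, 9 fell and none rose (11 and none with SAM), among them Angptl4 (-1.21, SE 0.10) and Hif3a (-0.51, SE 0.06). Without normoxia arrays 2, 3 and 4 these were -1.23 and -0.51, and of the list Angptl4 alone passed (limma adjusted p = 0.0133). The part of glucocorticoid signalling in the fall of Ddit4 was not tested.

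Mxi1, a MYC antagonist, differed by -0.07 (limma adjusted p = 0.523) and was called lower with quantile normalization (-0.23, adjusted p = 0.0221). Kdm3a, a histone demethylase, differed by 0.12 (interval -0.03 to 0.28). Selenbp1, which encodes a selenium-binding protein, read 13.40, 13.35, 13.20, 13.28 and 13.39 on the normoxia arrays and 13.06, 13.17, 13.13, 12.89 and 12.96 on the hypoxia arrays, without overlap. It fell by 0.28 (SE 0.07, limma adjusted p = 0.0259) to 0.822 of the normoxia level. The call was lost without normoxia array 2 or 4 or hypoxia array 1 or 4 (adjusted p up to 0.0594), and the change was -0.36 (0.201) without normoxia arrays 2, 3 and 4. Its second probe set, which is of a class that can bind transcripts of related genes, differed by -0.19 and did not pass (adjusted p = 0.139). Red cells also hold this protein. Of 9 red cell markers 4 were measured, and their mean level was 7.64 to 8.03 in normoxia and 7.22 to 7.49 in intermittent hypoxia, with 1 fall, that of the membrane exchanger gene Slc4a1 (-1.03, and -1.15 without normoxia arrays 2, 3 and 4). Alas2, Epb42 and Hba-a1 differed by -0.39, -0.27 and -0.06 and did not pass. Hba-a1 was low, with means of 5.28 in normoxia and 5.22 in hypoxia, and Alas2 was highest, at 12.07, on normoxia array 5. The part of red cells in the fall of Selenbp1 was not tested.

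The promoters of the members that fell and rose were set side by side for the HIF core motif. RefSeq promoter sequences (GRCm38.p6) were matched by symbol for 31 of 32 members, and the 250 bases before each annotated start were searched for ACGTG and GCGTG on both strands, as CACGT and CACGC on the other strand. The motifs ACGTG and CACGT overlap where CACGTG occurs. A match was found before at least 1 start in 28 of the 31 members, 16 of 19 glycolytic and 12 of 12 others, while 41.5% of all 27025 genes in the table held one. The 6 members that passed all held a match, those that fell as well as those that rose. A match is a description of letters and not a bound site. The 5 called members with a single annotated start are printed 5′ to 3′ on the gene's strand, with matches in capitals; Pkm, with 2 starts, had 1 match before the second. Ddit4 lies at chr10:59951771-59952020 on the minus strand, Selenbp1 at chr3:94932833-94933082 and Slc16a3 at chr11:120948817-120949066 on the plus strand, Pfkp at chr13:6648772-6649021 on the minus strand and Pgam1 at chr19:41911621-41911870 on the plus strand.
Ddit4: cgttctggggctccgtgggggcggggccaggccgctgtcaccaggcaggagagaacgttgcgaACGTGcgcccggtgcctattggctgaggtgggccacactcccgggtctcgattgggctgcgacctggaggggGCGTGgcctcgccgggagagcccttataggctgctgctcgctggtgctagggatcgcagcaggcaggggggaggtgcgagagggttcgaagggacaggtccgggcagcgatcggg
Selenbp1: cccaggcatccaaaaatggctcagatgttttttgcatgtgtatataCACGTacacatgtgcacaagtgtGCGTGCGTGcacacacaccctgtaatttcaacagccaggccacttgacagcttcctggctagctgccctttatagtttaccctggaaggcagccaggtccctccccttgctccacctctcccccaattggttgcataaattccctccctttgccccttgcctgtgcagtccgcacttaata
Slc16a3: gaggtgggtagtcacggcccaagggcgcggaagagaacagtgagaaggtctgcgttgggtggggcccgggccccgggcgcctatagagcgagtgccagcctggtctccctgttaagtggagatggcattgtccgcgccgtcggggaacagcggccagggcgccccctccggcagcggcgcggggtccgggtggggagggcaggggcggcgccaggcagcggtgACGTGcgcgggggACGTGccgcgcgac
Pfkp: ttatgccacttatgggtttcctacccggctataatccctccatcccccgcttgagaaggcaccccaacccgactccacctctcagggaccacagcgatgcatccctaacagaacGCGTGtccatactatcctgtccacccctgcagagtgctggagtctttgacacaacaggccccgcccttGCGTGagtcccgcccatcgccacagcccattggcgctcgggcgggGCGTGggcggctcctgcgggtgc
Pgam1: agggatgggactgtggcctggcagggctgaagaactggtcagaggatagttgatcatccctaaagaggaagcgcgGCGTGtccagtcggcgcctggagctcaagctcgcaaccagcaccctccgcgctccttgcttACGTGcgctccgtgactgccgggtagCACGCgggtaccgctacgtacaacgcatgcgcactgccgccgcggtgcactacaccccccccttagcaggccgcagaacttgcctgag

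Matches thus lay before members that fell and before members that rose. Ddit4, which fell, held 2 matches, as did Slc16a3, whose 2 ACGTG runs lie close together near the start. Pfkp and Pgam1, which rose, held 3 each, and Selenbp1 held 3, of which 2 GCGTG runs overlap within a GCGTGCGTG repeat. Members that did not pass held matches too. Bnip3 and the first window of Ldha each had 5, but a CACGTG was counted as 2 matches. Bnip3 held 1 CACGTG and this window of Ldha 2, while the printed windows held none.

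Genes next to the members were counted from fixed lists, which were drawn up with earlier results of these data known. Of 28 other HIF-responsive genes 7 rose and 3 fell, with a median of -0.01, where 8.93% of all genes were called higher and 3.60% lower. These shares are the background for each list. Those with the smallest p were Angptl4, a secreted lipase inhibitor that fell, Pdgfb, a growth factor for pericytes that rose by 0.79 (SE 0.09), and Tgfb3, another growth factor, which rose by 0.40 (SE 0.07). Of 9 HIF subunits and oxygen-sensing hydroxylases, the inhibitory subunit gene Hif3a and the hydroxylase gene Egln3 (-0.39, SE 0.09) fell and Hif1a rose by 0.38 (SE 0.09). Of 11 further glycolytic enzymes and carriers 2 fell, Bpgm (-0.49, SE 0.13), the red cell mutase that makes the allosteric effector of haemoglobin, and Slc16a7 (-0.39, SE 0.10), a monocarboxylate carrier. Bpgm was highest, at 10.44, on normoxia array 5. Without normoxia arrays 2, 3 and 4, Pdgfb was 0.60 (limma adjusted p = 0.0177) and Angptl4 also passed. Tgfb3, Egln3, Hif1a, Bpgm and Slc16a7 were then 0.33, -0.21, 0.20, -0.70 and -0.38 and did not pass.

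Side branches of glucose metabolism were counted in the same way, beside 12.5% of all genes called in either direction. Of 9 genes of the pyruvate dehydrogenase complex, its regulators and the pyruvate carrier, the kinase gene Pdk4 fell by 1.50 (SE 0.33) and its relative Pdk3 rose by 0.27 (SE 0.07), while Pdk1 did not pass. Of 7 pentose phosphate genes none passed limma, 1 was below an unadjusted p of 0.05 and SAM called 1 higher. Of 16 genes of gluconeogenesis and glycogen 3 rose, Gyg, the primer of glycogen, by 0.96 (SE 0.14), the phosphoglucomutase gene Pgm1 by 0.40 (SE 0.09) and Ugp2, which makes the glycogen precursor, by 0.28 (SE 0.08). The median of these 16 was -0.09, and SAM called 3 higher and 2 lower. No gene of these 3 lists passed without normoxia arrays 2, 3 and 4, with Pdk4 at -1.22, Pdk3 at 0.20, Gyg at 0.63, Pgm1 at 0.34 and Ugp2 at 0.17.

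**Figure D5:**
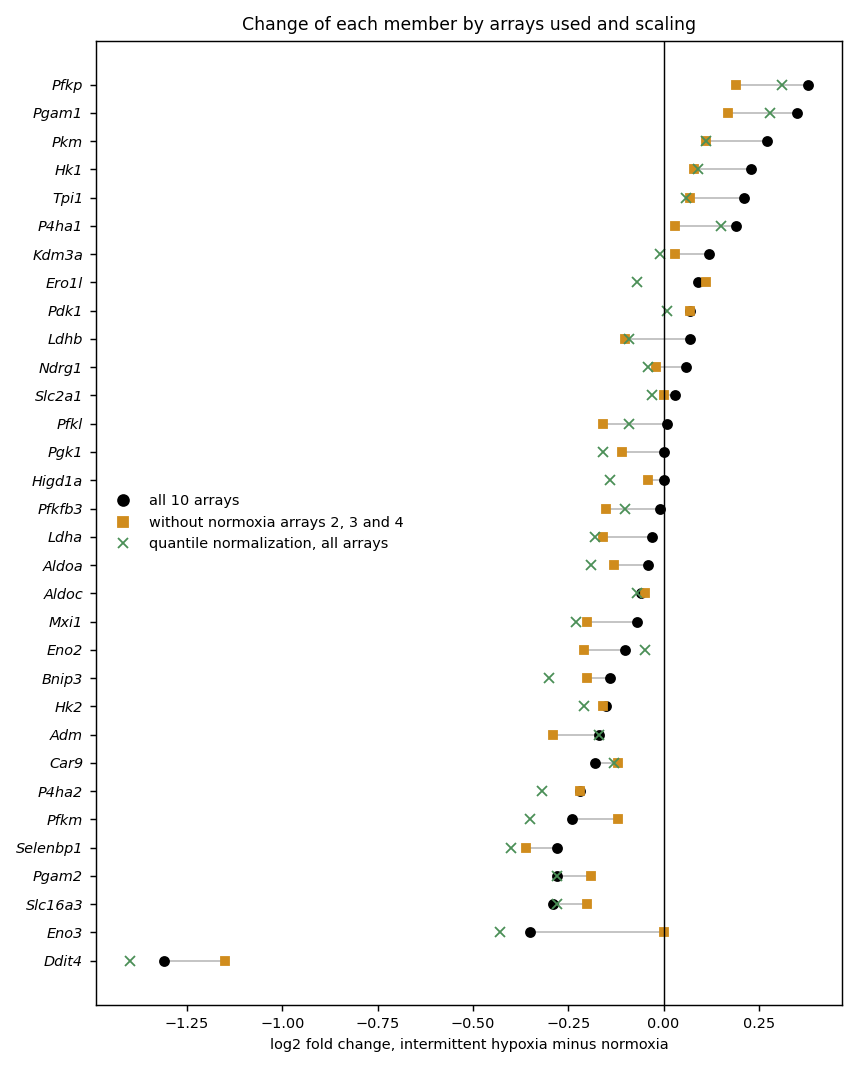
Log2 fold change of each of the 32 members with all 10 arrays (black circles), without normoxia arrays 2, 3 and 4 (squares) and with quantile normalization (crosses), ordered by the first. Squares and crosses lie mostly to the left of the circles, so that 18 of 32 changes are negative with all arrays, 22 without these arrays and 25 with quantile normalization, and Ddit4 stays the lowest in all 3. The median change over all genes is 0.01, 0.00 and -0.01 in these settings.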

How the data were processed

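Total RNA of whole lung was measured in 10 mice, 5 per group, with 1 array each. The deposited values were log2 probe set levels; the tools listed per the submitters' processing notes were RMA and affy, with no version. How far the authors normalized the arrays together is not given in the sources used here, and precision is limited by their number.

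The group difference was fitted with lmFit and eBayes (limma 3.58.1, R 4.3.3; two-sided) over all 22626 probe sets without a filter, with Benjamini-Hochberg adjustment and a threshold of 0.05. The p-values measure the spread between animals. By the platform's gene annotation 20380 probe sets had 1 symbol, 691 several and 1555 none. Every measured member was described, and up to 3 genes with the smallest p were named from each fixed list. The red cell markers, Acta1, Myh1, Casq1, Aqp5, Emcn and the macrophage markers were named from marker lists after their values were seen. Members and lists were chosen with earlier results of these data known. The alternatives were a replicate block, SAM (the method in the design text) over 100 permutations, quantile normalization, median centring, a filter on low values, eBayes options, arrayWeights, gene means, a threshold of 0.10 and leaving out arrays; SAM with the median of false calls and list values without normoxia arrays 2, 3 and 4 were added after the data were seen. Limma and SAM were tested on simulated data.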

Additional observations from a re-analysis of the deposited data

Results flagged for a closer look

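Of 64 sets of 5 values, 1 for each member and group, 7 held an array far from the other 4, where chance flags about 1 in 20 sets. On normoxia array 2, Eno3 was 10.36 against 8.74 to 8.98, Pfkm was 10.10 against 9.58 to 9.69 and Slc16a3 was 7.70 against 7.32 to 7.42 on the other normoxia arrays, and skeletal muscle markers were high on the same array. On normoxia array 5, Ldhb was 11.75 against 11.24 to 11.37 and Kdm3a was 9.97 against 9.63 to 9.72. Ndrg1 was low on normoxia array 3, at 9.14 against 9.38 to 9.46. Pfkfb3 was 9.87 on hypoxia array 3 against 9.09 to 9.26 on the other hypoxia arrays.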

How the results depend on the processing

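The count of 2699 probe sets became 4306 with SAM, 6329 with SAM and the median of false calls, 1755 with the replicate block, 4132 with arrayWeights, 4954 at a threshold of 0.10 and 16 without normoxia arrays 2, 3 and 4, and 1003 to 4800 with 1 array left out. The 4 glycolytic calls became 7 with SAM and the median of false calls, 2 with the replicate block, 2 with quantile normalization and 0 without normoxia arrays 2, 3 and 4 (0 to 6 with 1 array left out). The 2 calls of other members became 1 with the replicate block, 4 with quantile normalization and 0 without those 3 arrays (1 to 3 with 1 array left out). The replicate block ended the calls of Pkm, Slc16a3 and Selenbp1. The labels give the arrays a shared number and no other pairing. Same-numbered deviations correlated at -0.240 to 0.223, which cannot show whether these arrays were handled together. The 4 paralog calls became 0 without normoxia arrays 2, 3 and 4, where the smallest p is 0.0476, and 0 with the replicate block, where it is 0.0625; with 1 array left out they were 0 to 4, and with quantile normalization 3.

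Sign changes occurred in uncalled members, among them Eno3, which was -0.35 with all arrays. With quantile normalization they were -0.03 for Slc2a1, -0.09 for Pfkl and Ldhb, -0.14 for Higd1a, -0.04 for Ndrg1, -0.07 for Ero1l and -0.01 for Kdm3a. Median centring gave 0.00 for Pfkl and Higd1a. ArrayWeights gave 0.03 for Pfkfb3, 0.01 for Pgk1 and Ldha and 0.00 for Higd1a, and gene means 0.05 for Pfkfb3 and Pgk1. Without normoxia arrays 2, 3 and 4 the values were 0.00 for Slc2a1 and Eno3, -0.16 for Pfkl, -0.10 for Ldhb, -0.04 for Higd1a and -0.02 for Ndrg1. With 1 array left out the changes ran from -0.02 to 0.09 for Slc2a1, -0.04 to 0.08 for Pfkl, -0.14 to 0.06 for Pfkfb3, -0.09 to 0.02 for Aldoa, -0.08 to 0.05 for Pgk1, -0.11 to 0.02 for Ldha and -0.04 to 0.04 for Higd1a. The cause was not tested.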
